A study of Mus musculus with 10 samples.

Results

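The loss of Med23 was read in 2 mouse fibroblast systems of 1 series on smooth muscle and fat differentiation, and the effect in embryonic fibroblasts (MEFs) was set against the effect in 10T1/2 cells, gene by gene. All 10 arrays of the series entered. The MEF effect is the mean of the 3 differences Med23 knockout (KO) minus wild type (WT), paired by serum time (0, 30 and 90 min), and the 10T1/2 effect is the mean of 2 differences, Med23 knockdown minus control and both treatments minus MAL overexpression. The MEFs came from day 9.5 embryos and had immortalised by themselves, and the labels name no more than 1 line of each genotype, wild type or Med23KO, with no serum or with serum for 30 or 90 min. What is called the KO effect here therefore cannot be told apart from a difference between lines. The 10T1/2 line, which derives from mouse embryo and can form several mesenchymal cell types, was untreated (control), overexpressed MAL, carried the Med23 knockdown, or had both treatments. The sources used here do not say how the knockdown was made. Each condition had 1 array, so pairs of arrays stand in for replicates, and whether their spread is biological or technical is unknown. Both effects could be set side by side for 11230 of 18193 genes, those with a log2 value above the median of all probe sets on at least 1 array of each system.

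Mediator is the large complex that passes signals from DNA-bound transcription factors to RNA polymerase II, and Med23 encodes a subunit of its tail. Med23 is known as a contact of Elk1, the ternary complex factor that works with serum response factor (SRF) on immediate-early genes after growth signals. MAL, also called Mrtfa, is another partner of SRF, which is released when actin polymerises and turns on genes of the cytoskeleton and of smooth muscle. A knockout line lacks the subunit, while a knockdown lowers it, and fibroblasts of both kinds are used to study how precursor cells turn to smooth muscle or fat.

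The deposited log2 values lay between 1.85 and 14.7. Array medians were 3.86 to 3.93 in MEFs and 3.64 to 3.7 in 10T1/2 cells. Fibroblast identity was checked on 12 markers. Vim lay between 13.50 and 13.99 and Col3a1 between 12.47 and 13.55 on all 10 arrays. Col1a2 read 9.13 to 9.76 in WT and 13.31 to 13.4 in KO MEFs. Thy1 and Lum were under the array median on each MEF array, and Lum also on both knockdown arrays (3.34 and 3.05). In 10T1/2 cells Thy1 read 6.47 untreated, 5.84 with MAL, 5.38 knocked down and 4.67 with both. Of 10 measured markers, 1 rose and 4 fell in KO MEFs (20.7% and 20.4% of all genes). With the knockdown 3 rose and 0 fell (14.8% and 9.05% of all genes). Sox2, a neural stem cell factor, read 7.61 to 9.11 in WT MEFs and 2.61 to 2.99 in KO MEFs, and Col2a1, the collagen of cartilage, read 10.20 in the 10T1/2 control, so each system also held markers outside the fibroblast list. Of the defining macrophage genes, Ptprc, Adgre1 and Aif1 were at or below 3.71 on every array, while Csf1r read 4.26 to 4.95, and Pecam1 and Cdh5 of endothelium at or below 3.53. Bulk RNA cannot tell fewer cells of a type from less RNA per cell. The poly-A control transcripts, which are added to the RNA, were higher in KO than WT by 0.28, 0.30 and 0.58 at 0, 30 and 90 min and lower with the knockdown by 0.71 without MAL and 0.70 with MAL. The part of this in any gene's result was not tested.

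Med23 itself fell in both systems, and further in the KO MEFs. At 0, 30 and 90 min of serum, the order used throughout, WT MEFs read 7.14, 7.39 and 6.9 and KO MEFs 3.3, 3.3 and 2.91, where it was below the median of each array. In 10T1/2 cells it read 5.45 untreated, 5.67 with MAL, 4.24 knocked down and 3.94 with both. The groups did not overlap in either system, and the knockdown left more Med23 signal than the knockout. The KO effect was -3.97 (SE 0.15, adjusted p = 1.27e-06), at least 9.54-fold lower (n = 3 pairs), and the knockdown effect was -1.47 (SE 0.18, adjusted p = 0.00518), 2.77-fold lower (n = 2 pairs). Their difference, KO effect minus knockdown effect, was -2.5 (SE 0.24, adjusted p = 0.000377). Without the 2 arrays with MAL the knockdown call on Med23 was lost (adjusted p = 0.0558). The sources used here do not name the exons removed in the KO allele, so the probe set may or may not lie within them.

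Across the genome, more genes passed the test in 1 system than in both. The KO effect passed the limma test for 4621 of 11230 genes (41.1%), 2329 higher and 2292 lower, and the knockdown effect for 2676 (23.8%), 1660 higher and 1016 lower. The difference between the effects passed for 3593 genes (32.0%), 1672 with the KO effect above the knockdown effect (14.9%) and 1921 with it below (17.1%). Both effects passed for 1295 genes (11.5%), of which 486 rose and 300 fell in both, 230 rose in KO MEFs and fell with the knockdown, and 279 did the reverse. By size, 1776 genes (15.8%) differed at least 2-fold in KO MEFs with 1 sign in all 3 pairs, 915 higher (8.15%) and 861 lower (7.67%). With the knockdown 1007 genes (8.97%) differed at least 2-fold with 1 sign in both pairs, 816 higher (7.27%) and 191 lower (1.70%). After quantile normalization the knockdown split was 545 higher and 230 lower by size and 1252 higher and 1165 lower by the test, so the surplus of higher genes shrank under that scaling.

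The knockdown calls take part of their spread from the MEF arrays. The joint fit has 3 residual degrees of freedom, of which the 4 arrays of 10T1/2 cells bring 1, and a fit on those 4 arrays alone called 0 genes by limma (smallest adjusted p = 0.0670), with 3814 genes at an unadjusted p under 0.05. Where a 10T1/2 pair is left out, the pair that remains brings 0 residual degrees of freedom. Knockdown calls in such runs, here and in every paragraph, rest on 1 difference between arrays and take all their spread from the MEF arrays. Without the pair with MAL the knockdown test called 163 genes and the test of the difference 2124; without the pair lacking MAL the knockdown test called 1772 genes. Without the 30 min arrays it called 1613, and the KO test called 2909, or 2979 without the 0 min arrays. The knockdown values themselves were alike in the pairs with and without MAL, with r = 0.68 across genes, and the KO values at the 3 serum times with r from 0.85 to 0.93.

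**Figure D1:**
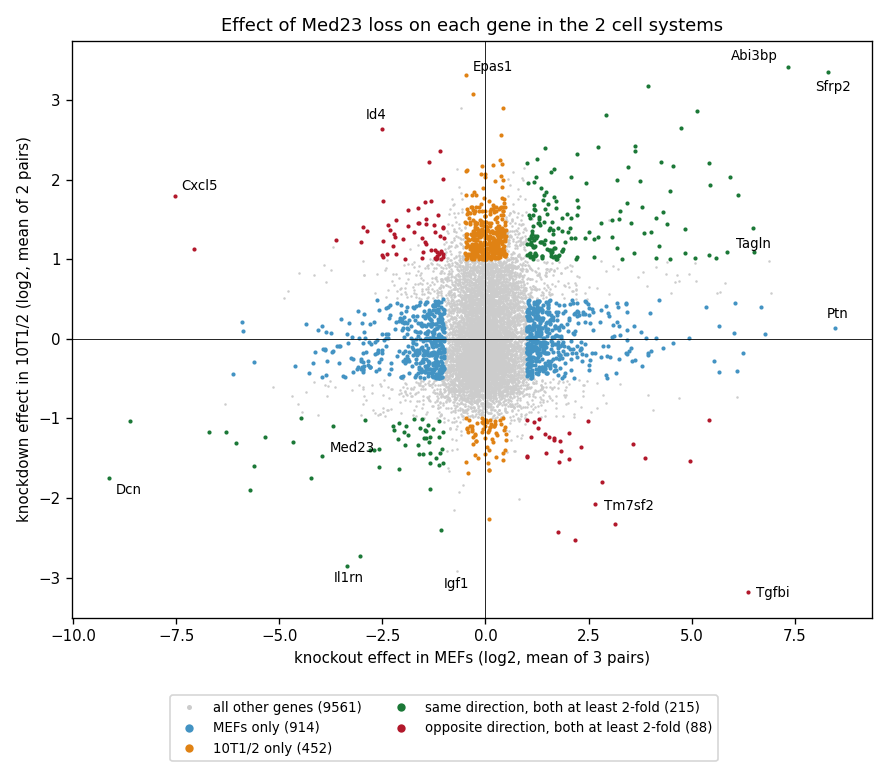
Each point is 1 of 11230 genes, with the knockout effect in MEFs on the x axis (log2, mean of 3 pairs) and the knockdown effect in 10T1/2 cells on the y axis (log2, mean of 2 pairs). Green points (215) went the same way in both systems at least 2-fold, red points (88) opposite ways, and blue (914) and orange (452) points moved at least 2-fold in 1 system with under 0.5 in the other; the cloud has no clear slope (r = 0.15).

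The effects were only weakly alike across genes, with Pearson r = 0.15 and Spearman rho = 0.12 over 11230 genes, which share arrays within each system but none between systems. Between single pairs, r ran from 0.08 for the 90 min MEF pair against the pair with MAL to 0.17 for the 30 min MEF pair against the same pair. Of the genes past 2-fold, 303 were past it in both systems, 17.1% of those in MEFs and 30.1% of those in 10T1/2 cells. The same direction was taken by 215 genes (1.91% of all), 160 higher and 55 lower in both, and opposite directions by 88 (0.784%). Of the 88, 29 were higher in KO MEFs and lower with the knockdown, and 59 were lower in KO MEFs and higher with the knockdown. Genes higher with the knockdown were also higher in KO MEFs in 19.6% of cases, against 8.15% of all genes, and lower in KO MEFs in 7.23%, against 7.67% of all genes. Genes lower with the knockdown were lower in KO MEFs in 28.8% of cases, against 7.67% of all genes, but also higher in 15.2%, against 8.15%.

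The edge of the 2-fold rule falls among close values. Just inside it stood Ccnt1 (KO effect -1.2, knockdown effect 1.0) and Edem1 (1.0 and 1.19), and just outside Atf6 (-0.997 and 1.2) and Mcc (0.993 and 1.59). With 1.5-fold in place of 2-fold, 824 genes went the same way and 546 opposite ways. With the mean of a gene's probe sets in place of the brightest, 119 and 48 did, and after quantile normalization the same-way genes split into 119 higher and 67 lower. Leaving out the pair lacking MAL gave 291 same-way and 168 opposite genes, and leaving out the pair with MAL 172 and 76. When each of the 3 MEF pairs and 2 10T1/2 pairs was left out in turn, 78 of the 160 genes higher in both stayed in their class every time, 20 of the 55 lower in both, 14 of the 29 and 17 of the 59.

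The genes higher in both systems had secreted and matrix proteins among their 8 leading members. The classes were chosen by these same effects, so the counts that passed describe the choice, beside 41.1% and 23.8% of all genes. Of the 160 genes, all 160 passed the KO test and 145 the knockdown test, the median effects were 1.68 in MEFs and 1.34 in 10T1/2 cells, and 70 were at least 2-fold in all 5 pairs. Sfrp2, a secreted protein that binds Wnts, read 3.0, 2.96 and 3.14 in WT and 11.54, 11.39 and 11.1 in KO MEFs. Its 10T1/2 values were 8.95 untreated, 4.3 with MAL, 10.61 knocked down and 9.33 with both. All KO arrays were far above WT, and both knockdown arrays were above the control and the MAL array, which was the lowest, with pair differences of 1.66 without and 5.03 with MAL. Its KO effect was 8.31 (SE 0.51, adjusted p = 1.4e-05), at least 173-fold, and its knockdown effect 3.35 (SE 0.63, adjusted p = 0.0124), 10.2-fold, and the difference of 4.96 passed (adjusted p = 0.00376). Rspo3, a secreted ligand that strengthens Wnt signals, read 3.24, 3.24 and 3.58 in WT and 8.0, 8.08 and 5.83 in KO MEFs. 10T1/2 cells had levels of 6.5 untreated, 5.49 with MAL, 9.02 knocked down and 9.32 with both. Its effects were 3.95 (SE 0.49, adjusted p = 0.00051) and 3.18 (SE 0.59, adjusted p = 0.0123), and their difference, 0.78, did not pass (adjusted p = 0.478). Rspo3 lay below the array medians in WT MEFs and entered there only through the KO arrays. Its MEF fold was thus at least 10.5, and the size of the difference is uncertain. Sfrp1, of the same family as Sfrp2, rose by 3.25 and 1.51 (adjusted p = 5.86e-06 and 0.00597).

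Abi3bp, a protein of the extracellular matrix, read 2.92, 2.47 and 3.01 in WT and 10.28, 10.12 and 9.99 in KO MEFs. In 10T1/2 cells it read 3.27 untreated, 2.69 with MAL, 5.94 knocked down and 6.85 with both. Groups were apart in both systems, with effects of 7.33 (SE 0.27, adjusted p = 1.11e-06) and 3.42 (SE 0.33, adjusted p = 0.0038). Its levels in WT MEFs and without the knockdown lay below the array medians, so it entered only through the KO and knockdown arrays. The folds are lower bounds, at least 74.5 in MEFs and at least 6.57 in 10T1/2 cells. Fat4, a giant cadherin, read 7.51, 7.64 and 7.18 in WT and 10.3, 10.34 and 9.84 in KO MEFs. The 10T1/2 arrays read 7.63 untreated, 8.45 with MAL, 9.67 knocked down and 11.23 with both. Its effects, 2.72 (SE 0.17, adjusted p = 1.33e-05) and 2.41 (SE 0.2, adjusted p = 0.00236), lay close together, and the difference was 0.31 (SE 0.26). Adamts12, a secreted metalloprotease, rose by 2.93 in MEFs and 2.81 in 10T1/2 cells, with a difference of 0.12 (SE 0.34). Npr3, the clearance receptor of natriuretic peptides, rose by 5.13 and 2.86, Klhl29 by 3.62 and 2.42, and Plagl1, an imprinted zinc finger factor, by 4.75 and 2.65. Npr3 lay below the array medians in WT MEFs and without the knockdown, so its folds were at least 22.5 and at least 5.78. Klhl29 lay below them in WT MEFs, so its fold there was at least 8.26. Of the 8 knockdown calls on these leading genes, 6 held without the pair with MAL and 7 without the 30 min arrays, and each held without the pair lacking MAL. Over the 160 genes the KO effect was the larger in 113, and the difference passed the test for 49 (32.0% of all genes).

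Other genes higher in both, named here after their values were seen, include developmental factors. Gli2, a transcription factor of hedgehog signalling, rose by 4.55 and 2.18, Snai2, a factor of mesenchymal cells, by 3.8 and 1.66, and Tbx18 by 2.41 and 1.27. Fzd4, a Wnt receptor, rose by 1.36 and 1.89, Lrp6 by 1.97 and 1.57, Ror1 by 2.23 and 1.55, and Dact1 by 2.08 and 2.04. Fbn2, a microfibril protein of developing tissue, rose by 2.22 and 2.32, and Itga1, a collagen receptor subunit, by 1.67 and 2.13. Of 13 measured Wnt modulator and feedback genes on the list, 4 rose and 3 fell in KO MEFs (20.7% and 20.4% of all genes) and 5 rose and 0 fell with the knockdown (14.8% and 9.05% of all genes), with medians of -0.25 and 0.22 against -0.02 and -0.06 over all genes. Wnt5a, a Wnt ligand of non-canonical signalling, and Ccn4, a Wnt-responsive matricellular gene, rose with the knockdown alone by size (2.13 and 1.81), with KO effects of -0.45 and -0.32. Lef1, a nuclear effector of Wnt signals, and the receptor Fzd1 fell in KO MEFs by 2.01 and 2.37, with knockdown effects of 0.22 and 0.41. Of the 5 knockdown calls on the list, 2 held without the pair with MAL.

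**Figure D2:**
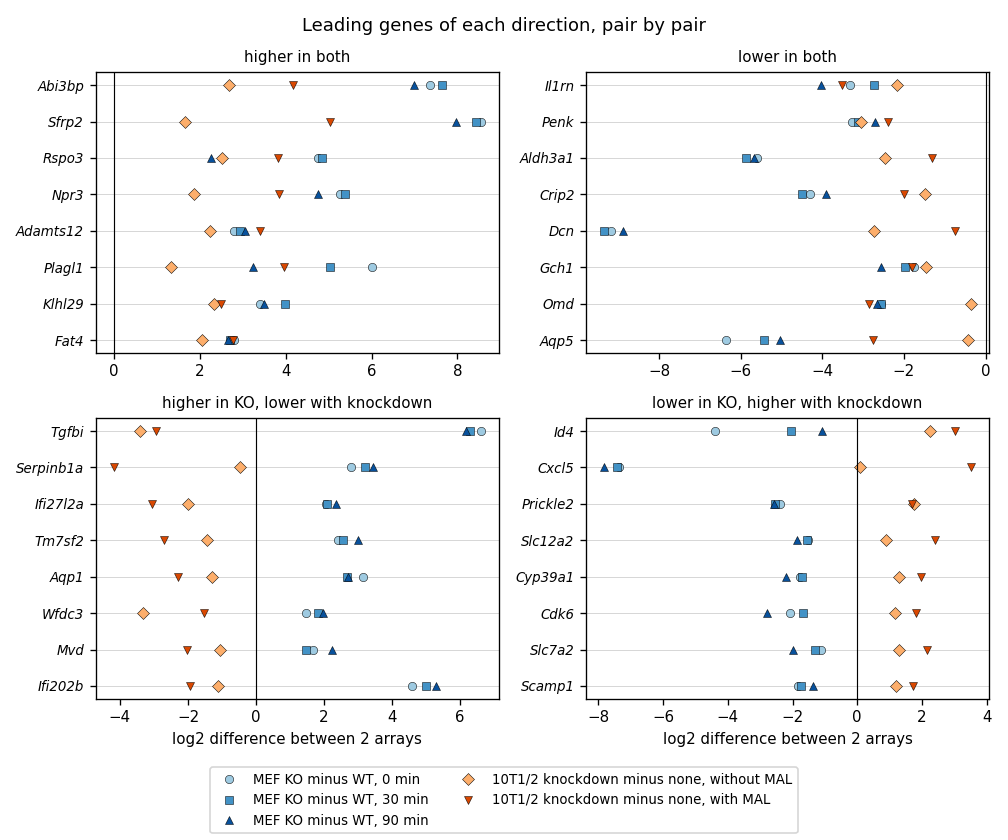
Log2 differences between 2 arrays for the 8 leading genes of each direction, chosen by the smaller of the 2 effects: blue marks are the 3 MEF pairs (KO minus WT) and orange marks the 2 pairs of 10T1/2 cells (knockdown minus none). For Sfrp2 the pairs differ by 1.66 without and 5.03 with MAL, and for Cxcl5 by 0.07 and 3.51, while the 5 marks of Fat4 lie together.

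Smooth muscle genes leaned upward in both systems. Of 19 measured contractile genes, 13 rose and 1 fell in KO MEFs (20.7% and 20.4% of all genes did), with a median effect of 1.03, and 6 rose and 0 fell with the knockdown (14.8% and 9.05% of all genes), with a median of 0.72. By pair the knockdown median was 0.84 without MAL and 0.68 with MAL. Tagln, the gene of transgelin on actin fibres, read 4.82, 6.19 and 5.86 in WT and 11.03, 11.62 and 11.81 in KO MEFs. In 10T1/2 cells it read 6.64 untreated, 10.12 with MAL, 7.78 knocked down and 11.17 with both. The KO arrays stood far above WT, and in 10T1/2 cells both arrays with MAL were above both without, so the knockdown groups overlapped, while within each MAL state the knockdown array was the higher (1.14 and 1.05). The effects were 5.86 (SE 0.17, adjusted p = 4.45e-07) and 1.1 (SE 0.21, adjusted p = 0.0129), and the difference of 4.77 passed (adjusted p = 4.6e-05). Myl9, a light chain of smooth muscle myosin, rose by 4.84 and 1.08, and Cnn1, calponin of smooth muscle, rose by 1.86 in MEFs, with a knockdown effect of 1.36 that did not pass (adjusted p = 0.0721). Acta2, smooth muscle actin, rose by 0.88 in KO MEFs and read 0.07 with the knockdown. Mylk, the kinase of myosin light chain, read 7.4, 7.55 and 7.31 in WT and 6.76, 7.44 and 7.13 in KO MEFs, where the groups overlapped, and 6.07 untreated, 5.23 with MAL, 7.8 knocked down and 9.64 with both in 10T1/2 cells. Its knockdown effect was 3.07 (SE 0.51, adjusted p = 0.00899) and its KO effect -0.31 (SE 0.42, adjusted p = 0.595), and 1 of its 3 probe sets did not share these signs. Of the 6 knockdown calls on the list, 2 held without the pair lacking MAL and 1 without the pair with MAL.

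**Figure D3:**
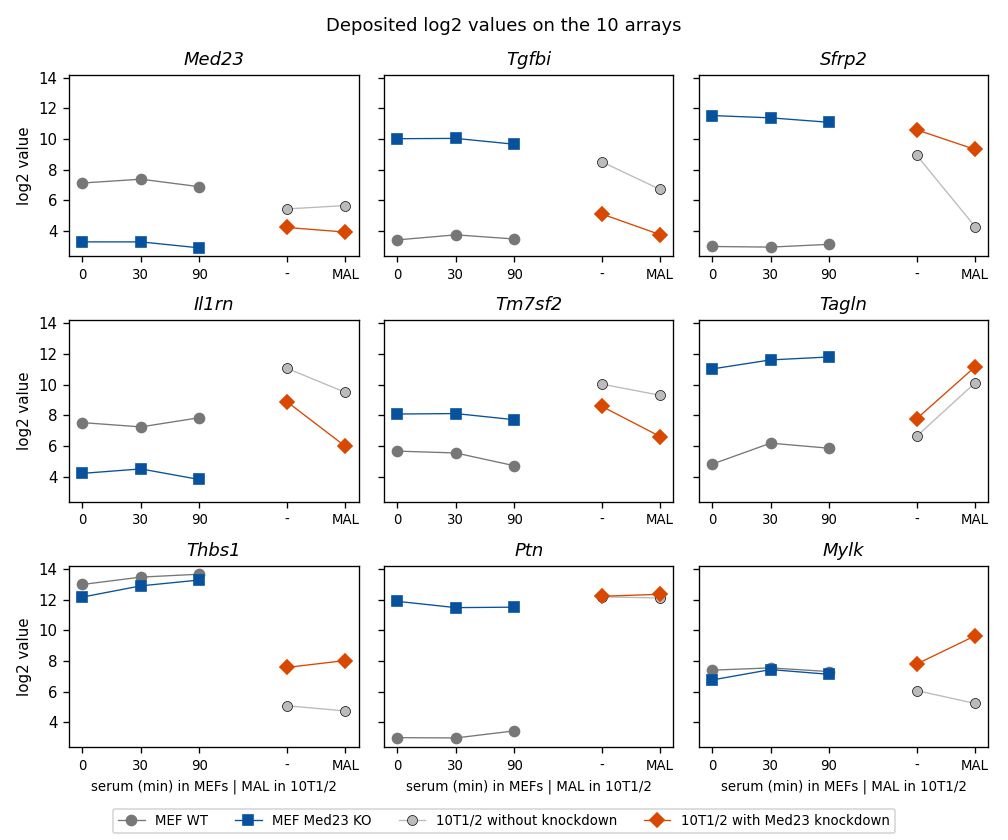
Deposited log2 values of 9 genes on the 10 arrays: MEF arrays by serum time (grey circles WT, blue squares KO) and 10T1/2 arrays without and with MAL (pale circles without knockdown, orange diamonds with it). Tgfbi is above WT in KO MEFs and below its pair with the knockdown, Sfrp2 is higher in both, Il1rn lower in both, and Ptn differs in MEFs but not in 10T1/2 cells, where it is near 12 throughout.

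The CArG box, the motif of 10 letters that SRF binds, was looked for in the promoters of each class, since Myl9 and Cnn1 are known SRF targets; the promoter of Tagln was not searched here. RefSeq promoters (assembly GRCm38.p6, 250 bases before to 50 after a gene's start, read on both strands, which the motif's symmetry makes 1 search) held it in 350 of 22862 genes with 1 promoter entry (1.53%) and in 102 of 7226 genes tested here (1.41%). Of the genes higher in both systems, 101 had 1 entry and 5 held the box (4.95%), against 0 of 34 lower in both, 0 of 18 higher in KO and lower with the knockdown, and 1 of 31 the other way. In MEFs only, it was in 5 of 304 higher and 2 of 265 lower genes, and in 10T1/2 only in 1 of 247 higher and 0 of 41 lower genes. These are descriptions of letters and not of bound sites, and a promoter without the box may hold it elsewhere. The 5 windows are shown because they are all the boxes found among the genes higher in both, with 35 bases on each side where the promoter allows it and the box in capitals. They are Myl9 (chr2:156775268-156775347, plus strand), Rnd3 (chr2:51149167-51149246, minus strand), Fermt2 (chr14:45530225-45530304, minus strand), Ebf3 (chr7:137314474-137314553, minus strand) and Rnf128 (chrX:139610370-139610447, plus strand).
Myl9: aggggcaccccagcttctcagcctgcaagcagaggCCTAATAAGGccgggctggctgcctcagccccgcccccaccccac
Rnd3: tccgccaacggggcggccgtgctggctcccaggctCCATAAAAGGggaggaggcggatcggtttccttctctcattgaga
Fermt2: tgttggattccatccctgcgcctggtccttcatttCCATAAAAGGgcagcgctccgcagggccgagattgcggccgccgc
Ebf3: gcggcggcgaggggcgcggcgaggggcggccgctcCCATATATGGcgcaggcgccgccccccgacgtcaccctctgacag
Rnf128: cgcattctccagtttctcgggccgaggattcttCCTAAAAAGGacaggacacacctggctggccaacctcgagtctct
Fermt2 encodes a focal adhesion protein that activates integrins and Rnd3 a small GTPase that opposes contraction. Myl9 rose by 4.84 and 1.08, Rnd3 by 1.4 and 1.75, Fermt2 by 1.01 and 1.06, Ebf3 by 1.23 and 2.04 and Rnf128 by 6.13 and 1.81 in MEFs and 10T1/2 cells. The median GC content of promoters was 65.7% for the genes higher in both and 61.3% for all genes tested.

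Actin-MAL-SRF target genes had members that rose and fell in KO MEFs, and mostly rose where they passed with the knockdown. Of 28, 10 rose and 5 fell in KO MEFs (20.7% and 20.4% of all genes) and 8 rose and 1 fell with the knockdown (14.8% and 9.05% of all genes), with medians of 0.4 and 0.4. The difference passed for 14 (32.0% of all genes), 5 with the KO effect above the knockdown effect and 9 with it below. Fhl1, a LIM domain protein of muscle, rose by 1.11 and 1.22, and Vcl, vinculin, by 1.03 and 0.93. Thbs1, a matricellular protein, went opposite ways: it read 5.08 untreated, 4.74 with MAL, 7.58 knocked down and 8.03 with both, and in MEFs 12.99, 13.47 and 13.66 in WT and 12.17, 12.9 and 13.28 in KO. The knockdown arrays stood well above the others, while KO MEFs were below WT at each time with ranges that overlapped, with effects of 2.9 (SE 0.22, adjusted p = 0.00201) and -0.59 (SE 0.18, adjusted p = 0.0329). The KO call on Thbs1 was lost without the 0, 30 or 90 min arrays (limma adjusted p = 0.1818, 0.1195 and 0.05351). Csrp2, a LIM protein of smooth muscle, rose by 2.48 in KO MEFs and fell by 1.03 with the knockdown, a call lost without the pair with MAL. Srf itself rose by 0.61 in KO MEFs and read -0.24 with the knockdown (adjusted p = 0.348). The KO call on Srf was lost without the 0 min or the 90 min arrays (limma adjusted p = 0.0739 and 0.0506). Of the 9 knockdown calls on this list, 2 held without the pair with MAL.

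The 8 leading genes lower in both systems included cytokine, matrix and detoxification genes. Of the 55 genes, Med23 among them, 54 passed the KO test and 45 the knockdown test, the median effects were -1.92 and -1.30, and 16 were at least 2-fold in all 5 pairs. This class too was chosen by these effects, so the passes describe the choice, beside 41.1% and 23.8% of all genes. Il1rn, the natural antagonist of the interleukin-1 receptor, read 7.53, 7.25 and 7.85 in WT and 4.22, 4.51 and 3.82 in KO MEFs. The 10T1/2 arrays read 11.07 untreated, 9.5 with MAL, 8.89 knocked down and 5.98 with both. Each KO or knockdown array was below its partner, with effects of -3.36 (SE 0.3, adjusted p = 9.91e-05) and -2.85 (SE 0.37, adjusted p = 0.00528), and 2 other probe sets had the same signs. Penk, the precursor of enkephalin peptides, read 10.07, 10.15 and 9.78 in WT and 6.8, 7.03 and 7.06 in KO MEFs. On 10T1/2 arrays it read 10.41 untreated, 7.83 with MAL, 7.36 knocked down and 5.43 with both. Its effects of -3.04 (SE 0.18, adjusted p = 1.06e-05) and -2.73 (SE 0.22, adjusted p = 0.00201) differed by -0.31 (SE 0.28). Dcn, decorin, a small proteoglycan that binds collagen, read 13.71, 13.6 and 13.62 in WT and 4.53, 4.26 and 4.73 in KO MEFs. Its 10T1/2 values were 9.66 untreated, 7.19 with MAL, 6.93 knocked down and 6.43 with both. The KO effect was -9.14 (SE 0.32, adjusted p = 9.9e-07), 563-fold lower, and the knockdown effect -1.75 (SE 0.39, adjusted p = 0.0206), and the difference passed (adjusted p = 8.75e-05).

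Aldh3a1, an aldehyde dehydrogenase, fell by 5.71 and 1.9, Crip2, a LIM domain protein, by 4.24 and 1.75, and Gch1, the entry enzyme of tetrahydrobiopterin synthesis, by 2.1 and 1.64. Omd, a matrix protein of bone, fell by 2.59 and 1.61, but its 10T1/2 pairs were -0.36 without and -2.86 with MAL. Aqp5, a water channel, fell by 5.6 in KO MEFs, and its knockdown effect of -1.6 did not pass (adjusted p = 0.0534). Of the 7 knockdown calls on these genes, 3 held without the pair with MAL and 6 in each of the other runs that left a pair out. The metallothionein genes Mt1 and Mt2, which bind zinc and were named after their values were seen, were also in this class: Mt1 fell by 8.61 and 1.03, and Mt2 fell by 6.29 in KO MEFs with a knockdown effect of -1.17 (adjusted p = 0.153). Over the 55 genes the KO effect was the larger in 44, and the difference passed the test for 19 (32.0% of all genes).

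Immediate-early genes, which serum turns on within minutes, leaned downward in both systems. Of 25, 4 rose and 10 fell in KO MEFs (20.7% and 20.4% of all genes) and 0 rose and 6 fell with the knockdown (14.8% and 9.05% of all genes), with medians of -0.72 and -0.51. The difference passed for 6 (32.0% of all genes). In MEFs the median differed between serum times, from -0.97 at 0 min to -0.62 at 30 min and 0.0 at 90 min, while the 10T1/2 pairs were -0.47 and -0.44. Egr1, a zinc finger factor and a known Med23 and Elk1 target, read 9.81, 13.45 and 11.83 in WT and 6.43, 12.55 and 8.35 in KO MEFs. 10T1/2 cells had levels of 10.16 untreated, 9.36 with MAL, 9.03 knocked down and 7.71 with both. It was lower on the KO or knockdown array in all 5 pairs, its KO effect was -2.59 (SE 0.45, adjusted p = 0.00281), and its knockdown effect -1.39 (SE 0.55, adjusted p = 0.0978) did not pass. Egr2 fell in both, by 1.13 and 1.59, and Egr3 had effects of -2.25 and -1.09 that missed the threshold (adjusted p = 0.0505 and 0.42). Of the runs that left a pair out, only that without the 90 min arrays kept the KO call on Egr2. Its KO effect was -0.5 without the 0 min arrays. Junb fell by 0.78 and 0.8, Ier2 by 0.86 and 1.13 and Atf3 by 0.72 and 1.04, with differences under 0.4 in size. The KO call on Ier2 was lost without the 0 min or the 30 min arrays, and that on Atf3 without the 0 min arrays. Fos went opposite ways: it rose by 1.1 in KO MEFs and fell by 0.93 with the knockdown (adjusted p = 0.0497), and the difference of 2.02 passed. Klf6 rose by 1.6 in KO MEFs and read 1.08 with the knockdown (adjusted p = 0.0566), and Klf2 fell by 1.48 with the knockdown, with a KO effect of 0.26. None of the 6 knockdown calls held without the pair with MAL.

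Cholesterol synthesis genes leaned opposite ways in the systems, with the largest median difference of the 25 gene lists. Of 20 measured genes, 17 rose and 1 fell in KO MEFs (20.7% and 20.4% of all genes), with a median effect of 1.58, while 0 rose and 9 fell with the knockdown (14.8% and 9.05% of all genes), with a median of -0.7. The difference passed for 18 of the 20 and had a median of 2.09. The KO effect was above the knockdown effect in 17 and below it in 1 (14.9% and 17.1% of all genes). The knockdown shift rested mostly on the pair with MAL, where the median was -1.16, against -0.21 in the pair without it, and none of the 9 knockdown calls held without the pair with MAL. Tm7sf2, a sterol reductase of the late pathway, read 5.67, 5.55 and 4.72 in WT and 8.09, 8.12 and 7.72 in KO MEFs. In 10T1/2 cells it read 10.04 untreated, 9.31 with MAL, 8.59 knocked down and 6.62 with both. KO arrays were above all WT arrays and knockdown arrays below both others, and the effects were 2.66 (SE 0.24, adjusted p = 9.9e-05) and -2.07 (SE 0.29, adjusted p = 0.0061). Mvd, the enzyme that makes isopentenyl diphosphate, read 6.75, 6.98 and 6.54 in WT and 8.44, 8.44 and 8.77 in KO MEFs. The 10T1/2 arrays read 9.62 untreated, 8.84 with MAL, 8.57 knocked down and 6.8 with both, with effects of 1.79 (SE 0.22, adjusted p = 0.00054) and -1.55 (SE 0.27, adjusted p = 0.0104). Fdps, farnesyl diphosphate synthase, rose by 1.84 and fell by 1.41, Lss, lanosterol synthase, rose by 1.44 and fell by 1.2, Mvk, mevalonate kinase, rose by 1.01 and fell by 1.48, and Dhcr7, the last reductase, rose by 1.1 and fell by 1.24. Srebf2, the gene of the pathway's activator sterol response element binding protein, rose by 0.47 and fell by 0.9. Hmgcs1 and Idi1 rose in KO MEFs by 2.13 and 2.66 and had knockdown effects of 0.46 and -0.19 that did not pass. Ebp was the exception and fell in both, by 2.21 and 1.15. The poly-A controls moved in the same directions as this list, and their part in it was not tested.

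**Figure D4:**
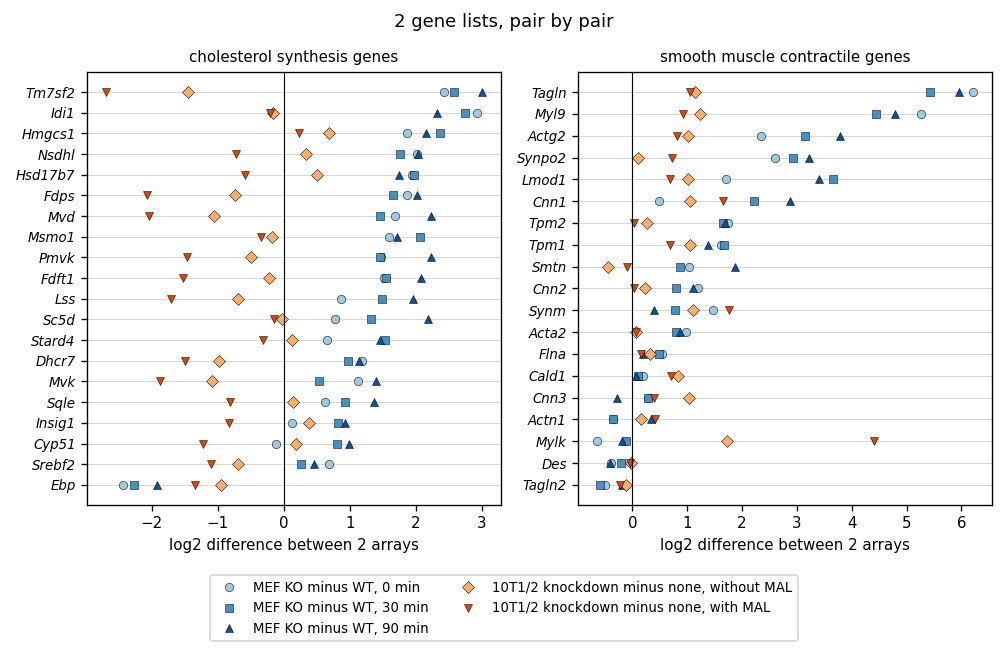
Log2 differences between 2 arrays for each measured gene of the cholesterol synthesis list (left) and the smooth muscle list (right), ordered by KO effect, with blue marks for the 3 MEF pairs and orange marks for the 2 pairs of 10T1/2 cells. Most cholesterol genes have blue marks above 0 and the pair with MAL below 0, with Ebp below 0 in both, while Tagln and Myl9 are above 0 in every pair and Mylk only in 10T1/2 cells.

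Beyond sterol enzymes, the 29 genes that were higher in KO MEFs and lower with the knockdown were led by Tgfbi, a secreted matrix protein induced by TGF-beta. It read 3.43, 3.76 and 3.49 in WT and 10.03, 10.05 and 9.67 in KO MEFs. On 10T1/2 arrays it read 8.52 untreated, 6.72 with MAL, 5.12 knocked down and 3.77 with both. The genotypes in MEFs were far apart, and the knockdown arrays were below both others. The effects were 6.36 (SE 0.15, adjusted p = 2.84e-07), at least 64.3-fold higher, and -3.18 (SE 0.19, adjusted p = 0.00141), 9.03-fold lower, and the difference was 9.53 (adjusted p = 3.12e-06), with 3 other probe sets of the same signs. Aqp1, a water channel, read 5.96, 6.14 and 5.95 in WT and 9.1, 8.81 and 8.65 in KO MEFs. Its 10T1/2 values were 11.19 untreated, 11.06 with MAL, 9.9 knocked down and 8.76 with both, with effects of 2.84 and -1.8. Kitl, the ligand of the receptor Kit, rose by 3.58 and fell by 1.33. Serpinb1a, a protease inhibitor, rose by 3.15 and fell by 2.33, but its 10T1/2 pairs were -0.48 without and -4.17 with MAL. Wfdc3 rose by 1.75 and fell by 2.43. All 29 passed both tests and the test of the difference, with median effects of 1.81 and -1.36, and 14 were at least 2-fold in all 5 pairs. The class was chosen by these same effects, so the passes describe the choice, beside 41.1%, 23.8% and 32.0% of all genes. Their median level was 5.41 in WT MEFs and 8.84 in 10T1/2 cells without knockdown. The class rule uses these same values, so the levels partly follow from the choice. Of the 8 leading knockdown calls in this class, 3 held without the pair with MAL.

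Of the 8 leading genes of this class, 2 are interferon-induced. Ifi27l2a, an interferon-induced gene, read 6.08, 6.06 and 5.73 in WT and 8.15, 8.15 and 8.07 in KO MEFs. 10T1/2 cells had levels of 10.16 untreated, 9.83 with MAL, 8.16 knocked down and 6.78 with both, with effects of 2.17 (SE 0.2, adjusted p = 0.000126) and -2.53 (SE 0.25, adjusted p = 0.0038). Ifi202b, which has near-identical family members that the probe set may share, rose by 4.96 and fell by 1.53. It lay below the array medians in WT MEFs, so its fold there was at least 22.0. Of 23 interferon-stimulated genes on the list, 8 rose and 4 fell in KO MEFs (20.7% and 20.4% of all genes) and 0 rose and 4 fell with the knockdown (14.8% and 9.05% of all genes), with medians of 0.38 and -0.38. The difference passed for 13 (32.0% of all genes), 9 with the KO effect above the knockdown effect and 4 with it below. Ifit1 rose by 0.75 and fell by 1.23, and Ifi35 rose by 0.41 and fell by 0.73. Rtp4 and Psmb9 rose in KO MEFs alone by size (3.94 and 2.55, with knockdown effects of -0.21 and -0.27). Ifit2 and the chemokine Cxcl10 fell in KO MEFs by 2.98 and 3.24, with knockdown effects of 0.98 and 0.03. After quantile normalization 7 genes of the list fell with the knockdown. Without the pair with MAL, 1 of 4 knockdown calls held.

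The 59 genes that were lower in KO MEFs and higher with the knockdown were led by Id4, an inhibitor of helix-loop-helix transcription factors. Id4 read 8.04, 7.96 and 6.64 in WT and 3.66, 5.91 and 5.56 in KO MEFs. In 10T1/2 cells it read 3.64 untreated, 2.84 with MAL, 5.89 knocked down and 5.86 with both. KO arrays were below all WT arrays, by -4.38 at 0 min and -1.08 at 90 min, and both knockdown arrays were above the others, whose levels were below the array medians. The effects were -2.5 (SE 0.52, adjusted p = 0.0065) and 2.64 (SE 0.64, adjusted p = 0.0256), and the difference of -5.14 passed (adjusted p = 0.00349). Prickle2, of planar cell polarity, read 7.45, 7.46 and 6.25 in WT and 5.07, 4.93 and 3.67 in KO MEFs. The 10T1/2 arrays read 5.38 untreated, 5.85 with MAL, 7.14 knocked down and 7.54 with both, with effects of -2.5 (SE 0.13, adjusted p = 5.62e-06) and 1.73 (SE 0.16, adjusted p = 0.00335). Cdk6, a cell cycle kinase that pairs with D cyclins, fell by 2.18 and rose by 1.49, and Slc12a2, a cotransporter of sodium, potassium and chloride, fell by 1.64 and rose by 1.64. Cyp39a1, an oxysterol hydroxylase, fell by 1.89 and rose by 1.62, and Scamp1, of secretory vesicles, fell by 1.64 and rose by 1.46. Slc7a2, a transporter of cationic amino acids, fell by 1.46 and rose by 1.72, and 2 of its 3 other probe sets shared both signs. Cxcl5, a neutrophil chemokine, fell by 7.53 in KO MEFs, but its 10T1/2 values of 9.1 untreated, 3.75 with MAL, 9.17 knocked down and 7.26 with both overlapped, and its knockdown effect of 1.79 did not pass (adjusted p = 0.0741). Of the 59, all passed the KO test and the test of the difference, 52 the knockdown test, and 12 were at least 2-fold in all 5 pairs, with median effects of -1.53 and 1.27. These passes describe the choice of the class by the same effects, beside 41.1% (KO), 32.0% (difference) and 23.8% (knockdown) of all genes. Of the 7 leading knockdown calls, 1 held without the pair with MAL.

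Adipocyte genes, the other branch the series asked about, did not lean 1 way in either system. Of 24 entries, 13 were measured in both systems, of which 4 rose and 5 fell in KO MEFs (20.7% and 20.4% of all genes) and 2 rose and 3 fell with the knockdown (14.8% and 9.05% of all genes), with medians of 0.07 and -0.29. The difference passed for 8 of the 13 (32.0% of all genes). Fabp4, a fatty acid binding protein of fat cells, was at the dim end: it read 4.17, 5.3 and 5.35 in WT and 3.0, 2.87 and 2.94 in KO MEFs. On 10T1/2 arrays it read 3.3 untreated, 2.64 with MAL, 4.89 knocked down and 3.55 with both. It fell by 2.0 in KO MEFs and rose by 1.25 with the knockdown, with the KO levels and both 10T1/2 levels without the knockdown below the array medians. Ebf1, an early factor of fat precursors, rose in both, by 1.82 and 0.83, and Zfp423, another, rose by 2.99 in KO MEFs, with 10T1/2 pairs of -0.12 without and 3.1 with MAL. Cebpb, which starts fat differentiation, fell by 2.05 in KO MEFs and read -0.48 with the knockdown (adjusted p = 0.134). Plin2, of lipid droplets, and Agpat2 and Dgat2, of triglyceride synthesis, fell with the knockdown by 0.66, 0.86 and 1.11, against KO effects of 0.32, 0.69 and 0.12. None of the 5 knockdown calls held without the pair with MAL.

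Genes past 2-fold in MEFs with a knockdown effect under 0.5 in size numbered 914, 469 higher and 445 lower, of which 417 and 394 passed the test of the difference. The rule itself sets the effects apart, so the counts that passed describe the choice, beside 32.0% of all genes. Ptn, the growth factor pleiotrophin, led them: it read 3.0, 2.98 and 3.44 in WT and 11.89, 11.48 and 11.51 in KO MEFs. Its 10T1/2 values were 12.18 untreated, 12.11 with MAL, 12.22 knocked down and 12.35 with both. KO MEFs thus stood near the level of all 4 arrays of 10T1/2 cells, and WT MEFs were below the array medians, with effects of 8.49 (SE 0.18, adjusted p = 2.84e-07) and 0.14 (SE 0.21, adjusted p = 0.645). Across the 469 higher genes the median level was 5.89 in WT MEFs and 7.44 in 10T1/2 cells without knockdown, and across the 445 lower genes 7.95 and 7.0. The rule draws on the WT values, so these levels partly follow from the choice. The sources used here do not say if the systems were normalized jointly. Fbln5, an elastic fibre protein, rose from 4.34, 4.29 and 4.18 in WT to 9.91, 9.9 and 9.66 in KO MEFs and read 11.99 untreated, 11.63 with MAL, 11.85 knocked down and 11.2 with both in 10T1/2 cells, and Col6a3, a chain of collagen VI, rose by 3.26 with a knockdown effect of 0.05. Apod, apolipoprotein D, rose by 6.68, Ctsz, a lysosomal protease, by 6.24, Alcam, an adhesion molecule, by 6.09, and Sgce, an imprinted sarcoglycan, by 6.06, with knockdown effects from -0.41 to 0.45. Trim30a rose by 6.78 but lay near or below the median of each 10T1/2 array, so a knockdown effect there could not be read. Alcam and Ptn each had another probe set that did not share both signs.

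Among the genes lower in MEFs alone, Ccn3, a matricellular protein, read 9.71, 9.2 and 9.49 in WT and 3.53, 3.45 and 3.74 in KO MEFs. 10T1/2 cells had levels of 11.39 untreated, 11.15 with MAL, 11.59 knocked down and 11.38 with both. KO arrays were far below WT while the 10T1/2 arrays differed little, with effects of -5.89 (SE 0.14, adjusted p = 2.84e-07) and 0.22 (SE 0.18, adjusted p = 0.389). Cdh13, an atypical cadherin, fell by 5.87, Mgst1, a microsomal glutathione transferase, by 5.6, Arhgap24, which switches off small GTPases, by 4.62 and Slc20a1, a phosphate transporter, by 4.36, with knockdown effects from -0.35 to 0.18 that did not pass. Cdkn2b, an inhibitor of the D cyclin kinases, read 10.1, 9.44 and 9.34 in WT and 3.46, 3.44 and 3.59 in KO MEFs. In 10T1/2 cells it read 3.92 untreated, 3.9 with MAL, 3.54 knocked down and 3.39 with both, near or below the array medians, so its knockdown effect could not be read. Its neighbour on the chromosome Cdkn2a, which also encodes cell cycle inhibitors, read 10.97, 10.90 and 10.72 in WT and 3.01, 2.95 and 3.33 in KO MEFs and was below the median on all 4 arrays of 10T1/2 cells. A further 703 genes were above the median on MEF arrays only, 79 of them at least 2-fold higher and 98 lower in KO, and 1210 on 10T1/2 arrays only, 26 higher and 25 lower with the knockdown. Peg3, an imprinted zinc finger gene, was at the top of the former, at 3.39, 3.32 and 3.30 in WT against 12.54, 12.38 and 12.10 in KO MEFs, and Zic1, a factor of neural crest and dermis, read 3.15, 2.85 and 2.72 against 10.97, 10.43 and 9.11. These genes were named after their values were seen, and a knockdown effect on them could not be read at these levels.

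Chemokine and delayed serum genes fell more often than they rose in KO MEFs. Of 22, 2 rose and 11 fell in KO MEFs (20.7% and 20.4% of all genes) and 1 rose and 0 fell with the knockdown (14.8% and 9.05% of all genes), with medians of -1.22 and 0.18. The difference passed for 12 (32.0% of all genes), 10 of them with the KO effect below the knockdown effect. Ccnd1, cyclin D, read 10.08, 10.44 and 10.41 in WT and 7.59, 7.69 and 8.42 in KO MEFs. The 10T1/2 arrays read 10.75 untreated, 9.86 with MAL, 10.76 knocked down and 9.68 with both, with effects of -2.41 (SE 0.17, adjusted p = 2.88e-05) and -0.09 (SE 0.21, adjusted p = 0.779). Lif, a cytokine of the interleukin-6 family, fell by 3.09, Hbegf, a ligand of the EGF receptor, by 3.88, Cxcl1, a chemokine, by 4.15 and Dusp4, a MAP kinase phosphatase, by 3.02, and their knockdown effects were -0.36, -0.59, 0.8 and -0.39, none past the test. Has2, the main hyaluronan synthase of fibroblasts, rose by 3.99 in KO MEFs, with a knockdown effect of 0.32. Csf1 was the list's gene that passed both tests and went opposite ways, falling by 0.57 in KO MEFs and rising by 0.92 with the knockdown. The KO call on Csf1 was lost without the 30 min or the 90 min arrays (limma adjusted p = 0.1513 and 0.1607). Its knockdown call was lost without the pair with MAL, where the effect was 0.6. The gene Lif had a mean of 9.32 in WT MEFs and 4.05 in 10T1/2 cells without knockdown, near the array median. Among developmental and housekeeping lists, 5 of 10 Hox genes and 9 of 15 ribosomal protein genes rose in KO MEFs (20.7% of all genes), with medians of 0.51 and 0.56, and 0 of either list passed the knockdown test by limma, with medians of 0.12 and -0.07. After quantile normalization 6 ribosomal genes rose. Hoxd8 rose by 4.02, from near the array medians, and in 10T1/2 cells it read 3.98 untreated, 3.82 with MAL, 3.77 knocked down and 3.71 with both.

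Genes past 2-fold with the knockdown and under 0.5 in size in KO MEFs numbered 452, 388 higher and 64 lower, of which 305 and 53 passed the test of the difference. Here too the rule sets the effects apart, so the counts that passed describe the choice, beside 32.0% of all genes. Epas1, a hypoxia-inducible factor, read 8.18 untreated, 4.19 with MAL, 10.07 knocked down and 8.93 with both in 10T1/2 cells, and 3.27, 4.16 and 3.65 in WT and 3.28, 2.94 and 3.42 in KO MEFs. Both knockdown arrays were above the others, with pair differences of 1.89 without and 4.74 with MAL, where the MAL array was the lowest. In MEFs the gene lay below the array median on 5 of 6 arrays, so a KO effect could hardly be read. The knockdown effect was 3.32 (SE 0.58, adjusted p = 0.0103). Pawr, a promoter of apoptosis, was bright in both systems: 7.06 untreated, 6.65 with MAL, 9.39 knocked down and 10.12 with both in 10T1/2 cells and 9.87, 9.8 and 9.88 in WT and 9.8, 10.05 and 10.96 in KO MEFs. Its knockdown effect was 2.9 (SE 0.33, adjusted p = 0.00454) and its KO effect 0.42 (SE 0.27, adjusted p = 0.255). Glis3, a zinc finger factor, rose by 2.56, Golm2 by 2.24 and Pdcd4, a repressor of translation, by 2.2, with KO effects from 0.35 to 0.41 that did not pass. Jag1, a Notch ligand, read 7.01 untreated, 7.71 with MAL, 9.15 knocked down and 9.64 with both in 10T1/2 cells, with a knockdown effect of 2.04 (SE 0.17, adjusted p = 0.00236) and a KO effect of -0.02, and Tgfb2 rose by 2.0 with a KO effect of 0.43. The median level of the 388 higher genes was 6.48 in 10T1/2 cells without knockdown and 7.87 in WT MEFs. The rule draws on the values without knockdown, so these levels partly follow from the choice. Of the 6 leading knockdown calls, 2 held without the pair with MAL.

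Of the 64 lower with the knockdown alone, Tmem9b was the largest: it read 10.84 untreated, 10.17 with MAL, 8.71 knocked down and 7.78 with both in 10T1/2 cells, and 8.39, 8.57 and 8.4 in WT and 8.39, 8.53 and 8.67 in KO MEFs. The MEF groups overlapped and the knockdown arrays were below both others, with effects of -2.26 (SE 0.17, adjusted p = 0.00201) and 0.08 (SE 0.14, adjusted p = 0.699). Col2a1 read 10.2 untreated, 8.86 with MAL, 8.84 knocked down and 6.93 with both, with a knockdown effect of -1.65 (SE 0.2, adjusted p = 0.00478), and in MEFs it was near the array medians. Spon2, a secreted matrix protein, fell by 1.68, Mgst3, a glutathione transferase, by 1.65, Tppp3, which binds tubulin, by 1.56 and Tmc6 by 1.55. Without the pair with MAL, Spon2, Mgst3 and Col2a1 lost their knockdown calls, with effects of -1.34, -1.03 and -1.36. In that run Spon2 and Mgst3 also lost the call of the difference. Tmc6 also fell slightly in KO MEFs (-0.47, adjusted p = 0.0276), and Spon2's other probe set did not share its signs. The KO call on Tmc6 was lost when any MEF pair was left out, and its KO levels lay below the array medians. Igf1, insulin-like growth factor, fell with the knockdown and less so in KO MEFs: it read 9.34 untreated, 7.01 with MAL, 6.25 knocked down and 4.27 with both in 10T1/2 cells, and 6.03, 5.7 and 5.91 in WT and 5.14, 5.2 and 5.26 in KO MEFs. It was lower on the KO or knockdown array in all 5 pairs, with effects of -2.92 (SE 0.18, adjusted p = 0.00141) and -0.68 (SE 0.15, adjusted p = 0.00757), and the difference of 2.24 passed. Its receptor Igf1r went opposite ways, rising by 1.9 with the knockdown and falling by 0.65 in KO MEFs.

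Imprinted genes are expressed from 1 parental copy. Over all genes 20.7% rose and 20.4% fell in KO MEFs and 14.8% rose and 9.05% fell with the knockdown, and of 10 imprinted genes 6 rose and 2 fell in KO MEFs and 4 rose and 0 fell with the knockdown, with medians of 0.92 and 0.58. Mest read 3.92, 4.02 and 3.56 in WT and 8.54, 8.28 and 8.09 in KO MEFs. On 10T1/2 arrays it read 6.73 untreated, 3.45 with MAL, 7.96 knocked down and 5.92 with both, with effects of 4.47 (SE 0.23, adjusted p = 4.97e-06) and 1.85 (SE 0.28, adjusted p = 0.00698). The KO or knockdown array was the higher in each pair, and Grb10, an adaptor that restrains insulin signalling, rose by 4.7 in KO MEFs with a knockdown effect of 0.72 (adjusted p = 0.0892). None of the 4 knockdown calls on the list held without the pair with MAL. Of 23 growth factor and receptor genes, 6 rose and 12 fell in KO MEFs and 5 rose and 3 fell with the knockdown, with medians of -0.62 and 0.06. The difference passed for 16 of them (32.0% of all genes). Fgfr2 rose in both, by 1.76 and 1.39, while Pdgfb, a platelet-derived growth factor, fell by 4.66 in KO MEFs with a knockdown effect of -1.3 (adjusted p = 0.112). Pdgfra fell by 0.62 and rose by 1.27, and its KO call was lost without the 0 min or the 90 min arrays (limma adjusted p = 0.0638 and 0.0819). Of 22 TGF-beta, BMP and Notch target genes, 4 rose and 10 fell in KO MEFs and 6 rose and 2 fell with the knockdown, with medians of -0.54 and 0.33. The difference passed for 11 (32.0% of all genes), 10 of them with the KO effect below the knockdown effect. Notch2 fell by 0.77 and rose by 1.25, Bmp4 rose in both, by 0.82 and 1.44, and Grem1, a BMP antagonist, fell in both, by 4.06 and 0.96.

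Of 32 extracellular matrix genes, 13 rose and 11 fell in KO MEFs (20.7% and 20.4% of all genes). With the knockdown 3 rose and 4 fell (14.8% and 9.05% of all genes). The medians were -0.04 and 0.1, but 24 of the 32 passed in KO MEFs, against 41.1% of all genes. The difference passed for 18 (32.0% of all genes), 8 with the KO effect above the knockdown effect and 10 with it below. Thbs2, a matricellular protein, fell in both, by 3.7 and 1.09, Tnc, tenascin C, rose in both, by 1.38 and 1.22, and Col1a2 rose by 3.89 in KO MEFs with a knockdown effect of 0.01. Of the 32 other Mediator subunit genes, 6 rose and 5 fell in KO MEFs and 6 rose and 2 fell with the knockdown, and none reached 2-fold in both systems. Over all genes 41.1% passed in KO MEFs and 23.8% with the knockdown, so the share of Mediator genes that passed was near or below that of all genes. Med29 fell in both, by 1.08 and 0.69, Med1 fell by 0.7 and rose by 0.95, and the kinase subunit gene Cdk8 rose by 1.08 with the knockdown, with a KO effect of -0.08. Of 30 S phase and mitosis genes, 6 rose and 7 fell in KO MEFs and 5 rose and 1 fell with the knockdown, of 14 p53 pathway genes 2 rose and 5 fell in KO MEFs and 2 rose and 0 fell with the knockdown, and of 21 ER stress and ATF4 genes 3 rose and 9 fell in KO MEFs and 0 rose and 4 fell with the knockdown. Their medians were -0.11 and 0.18, -0.33 and 0.22 and -0.35 and -0.34. Over all genes 20.7% rose and 20.4% fell in KO MEFs, and 14.8% rose and 9.05% fell with the knockdown. In ER stress and ATF4 genes both medians lay below 0, and Trib3, a target of ATF4, fell by 1.04 and 1.56. Without the pair with MAL, knockdown calls held for 3 of 8 growth factor genes, 2 of 8 TGF-beta, BMP and Notch targets, 1 of 7 matrix genes, 1 of 6 S phase and mitosis genes, and none of the 8 Mediator, 2 p53 and 4 ER stress genes.

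Marker lists of other cell types had few measured members. Of 8 macrophage markers, 3 were tested, of which 2 fell in KO MEFs (20.4% of all genes) and 1 with the knockdown (9.05%). Cd14 fell in both, by 2.68 and 0.93, but its knockdown call was lost without the 0 min or the 30 min arrays. The log2 of the list's summed linear level ran from 9.73 to 10.30 in WT and 8.25 to 8.31 in KO. It ran from 9.50 to 9.93 without and 8.92 to 9.41 with the knockdown. Cd14 and Lgmn were the brightest genes in these sums. Cd68, not tested, read 4.0 to 4.47 in WT and 2.96 to 3.27 in KO MEFs. Lyz2, also not tested, was higher with the knockdown: 4.58 untreated, 4.62 with MAL, 5.27 knocked down and 5.24 with both. Of 8 endothelial markers, 2 were tested and 1 passed: Flt1 fell by 2.64 in KO MEFs with a knockdown effect of -0.01. Emcn, not tested, read 3.1, 2.73 and 2.92 in WT and 5.38, 4.95 and 5.27 in KO MEFs, and the log2 of the summed level ran from 8.11 to 10.38 in WT, 6.87 to 8.89 in KO, 6.66 to 6.70 without and 6.49 to 6.55 with the knockdown. Of 9 bone and cartilage markers with a named probe set, 6 were tested: Col11a1 rose in both, by 4.3 and 1.59, and Omd fell in both. The skeletal muscle factors Myod1, Myog and Myf5 were at or below 3.63 on all 10 arrays, while Acta1 of the same list read 4.6 to 5.72 in MEFs and 5.78, 8.78, 6.24 and 9.72 in 10T1/2 cells (untreated, MAL, knockdown, both). Of the epithelial markers, Cdh1 was at or below 3.56 and Epcam between 4.6 and 6.41 on all 10 arrays. The part of these markers in the results was not tested.

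**Figure D5:**
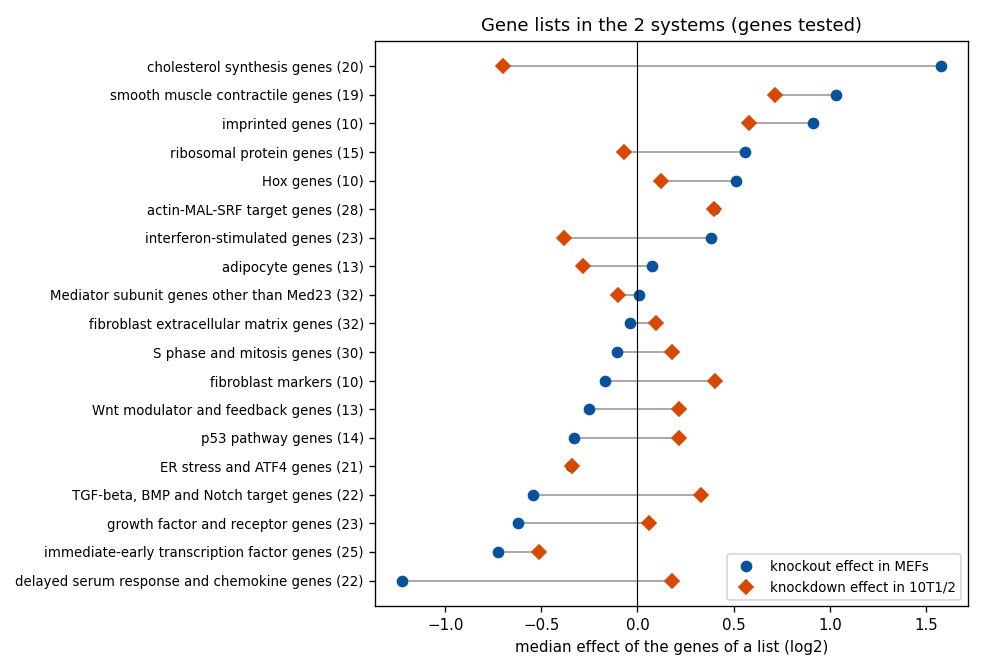
Median log2 effect of the genes of each list with at least 10 genes tested (number tested in brackets), blue circles for the knockout in MEFs and orange diamonds for the knockdown in 10T1/2 cells. The circle and diamond lie on opposite sides of 0 for the cholesterol list (1.58 and -0.70), both above 0 for the smooth muscle list (1.03 and 0.72), and both below 0 for the immediate-early list (-0.72 and -0.51).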

How the data were processed

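Expression was measured on 10 Affymetrix arrays, 1 per condition. The values are the authors' deposited log2 values per probe set (45101); RMA and MAS5 are named in the submitters' processing notes, without role or version. The sources used here do not say if the systems were normalized jointly.

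Control probe sets were left out, and each gene with 1 symbol (18193) was represented by its brightest probe set. Genes above the median of all probe sets on at least 1 array of each system entered (11230). Limma 3.58.1 (R 4.3.3) fitted 1 model over the 10 arrays with system, serum time, MAL and Med23 loss within each system (lmFit, eBayes, two-sided, Benjamini-Hochberg over 11230 genes, threshold 0.05); adjusted p-values are from it, and "rose", "fell" and "passed" refer to that threshold. Classes by size need 1 on the log2 scale and 1 sign in each pair; "alone" means under 0.5 in size in the other system. Folds against groups below the array medians on all arrays are given as "at least". Effects on the log2 scale are differences of the deposited values, also where a group lay below the array medians, so their size is uncertain there. Named genes are Med23, the 8 per direction with the largest smaller effect in both systems, the 6 per direction with the largest effect in 1 system that passed the test of the difference, and members of the gene lists. The members and lists were chosen with earlier results of these data known. The fit was tested on simulated data. Filters, normalization, probe set choice, fold and left-out pairs were varied. The number of arrays limits the precision, and p-values measure only the spread between these arrays, which may be technical.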

Additional observations from a re-analysis of the deposited data

Results flagged for a closer look

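The KO effect and the knockdown effect differed for 3593 of 11230 genes by the limma test of the difference itself, among them Med23, with a KO effect minus knockdown effect of -2.5. Of the named genes higher in both systems, the difference was Abi3bp 3.92, Sfrp2 4.96, Npr3 2.27 and Klhl29 1.21. Of those lower in both it was Aldh3a1 -3.82, Crip2 -2.49, Dcn -7.39 and Aqp5 -4.0.

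Of the genes higher in KO MEFs and lower with the knockdown, the difference was Tgfbi 9.53, Serpinb1a 5.47, Ifi27l2a 4.69, Tm7sf2 4.73, Aqp1 4.63, Wfdc3 4.17, Mvd 3.34 and Ifi202b 6.49. Of those lower in KO MEFs and higher with the knockdown it was Id4 -5.14, Cxcl5 -9.32, Prickle2 -4.22, Slc12a2 -3.28, Cyp39a1 -3.51, Cdk6 -3.67, Slc7a2 -3.18 and Scamp1 -3.1. These genes were chosen for opposite signs, so their differences describe the choice.

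Of the named genes past 2-fold in MEFs alone, the difference was Ptn 8.35, Trim30a 6.73, Apod 6.28, Ctsz 6.42, Alcam 6.5 and Sgce 5.62 for those higher and Cdkn2b -5.68, Ccn3 -6.11, Cdh13 -5.97, Mgst1 -5.31, Arhgap24 -4.27 and Slc20a1 -4.54 for those lower. Trim30a and Cdkn2b lay near or below the array medians in 10T1/2 cells, so a knockdown effect on them could not be read. Of those past 2-fold with the knockdown alone the difference was Epas1 -3.79, Mylk -3.38, Pawr -2.48, Glis3 -2.17, Golm2 -1.89 and Pdcd4 -1.78 for those higher and Tmem9b 2.34, Spon2 1.26, Col2a1 1.73, Mgst3 1.73, Tppp3 1.63 and Tmc6 1.08 for those lower. Epas1, Col2a1, Tppp3 and Tmc6 lay near or below the array medians in MEFs, so a KO effect on them could hardly be read. All these genes were chosen for effects set apart and for this test, so their differences describe the choice.

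The poly-A control transcripts, which carry no mouse signal, differed too: their median was higher in KO than WT MEFs by 0.39 (mean of 3 pairs) and the knockdown minus no knockdown difference was -0.7 (mean of 2 pairs). With 1 array per condition, no group was large enough to look for a single outlying array.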

How the results depend on the processing

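With the mean of a gene's probe sets in place of the brightest, 119 genes went the same way, 48 opposite ways and 236 were past 2-fold in 10T1/2 cells alone. With 1.5-fold in place of 2-fold these counts were 824, 546 and 1757, and 2015 in MEFs alone. A fit on the 10T1/2 arrays alone called 0 genes by limma (3814 at an unadjusted p under 0.05; 2676 in the joint fit), and the MEF arrays alone called 4835. When each pair was left out in turn, the KO test called 2909 to 4835 genes, the knockdown test 163 to 3087 and the test of the difference 2124 to 3272. The same runs gave 172 to 291 genes that went the same way, 76 to 168 opposite ways, 817 to 975 in MEFs alone and 400 to 827 in 10T1/2 cells alone. The fewest knockdown calls came without the pair with MAL. Both runs without a 10T1/2 pair held 8 arrays and took the spread of their knockdown calls from the MEF arrays alone. The cause of the drop was not tested. No named or listed gene's effect turned sign while called in any of these runs. Of the effects of named and listed genes, 183 lost their call without the pair with MAL and 20 gained one; without the 30 min arrays 118 did and 10, and after quantile normalization 23 did and 22. The filter on low values, quantile normalization and raising dim values to the array median kept each count of calls or classes within 1.5 times. The correlation of the effects ran from 0.131 to 0.167 over all alternatives. The arrays are paired by serum time and MAL state, which are terms of the joint fit; the labels give no replicate numbers for a further block. Signal near the array median limits the dim genes named above, and 1 line per genotype limits what the p-values cover.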
